A study of Homo sapiens with 8 samples.

Results

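Lanosterol synthase (LSS) and 8 enzymes that act after it, CYP51A1, TM7SF2, MSMO1, NSDHL, HSD17B7, EBP, SC5D and DHCR7, were followed in t(4;14)-positive multiple myeloma (MM) cells exposed to fluvastatin, a drug that inhibits HMG-CoA reductase. The 9 genes were chosen by name as enzymes of cholesterol synthesis downstream of squalene, and were found by their Ensembl identifiers among the 58219 genes in each file. All 9 passed the filter on low counts and were among the 13129 protein-coding genes tested. The cells were the established MM lines H929 and KMS11, each held for 24 h in 2 µM fluvastatin or in the vehicle ethanol, and 2 biological replicates of each of these 4 groups gave 8 RNA-seq libraries. No group carried a transgene or a deletion made for this experiment as far as the labels say, and each line is a single line, so a difference between them belongs to these 2 cell lines.

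Cholesterol is made from acetyl-CoA through mevalonate, farnesyl diphosphate and squalene. SQLE turns squalene into its epoxide, LSS closes the rings to give lanosterol, a group of enzymes then removes the methyl groups at carbons C14 and C4, and a last group moves and reduces double bonds until cholesterol is reached. Transcription of most genes of this route is driven by SREBP2, which INSIG proteins hold in the endoplasmic reticulum with its escort SCAP while sterols are plentiful. A statin acts far upstream of LSS, and none of the 9 genes encodes the target of the drug.

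Total expected counts ranged from 26702515 to 41910446 per library. Replicates of a group differed by more than counting error (chi-square over its degrees of freedom 9.97 to 37.8, from 5560 well-counted genes), so that the spread between replicates limits precision for well-counted members. TM7SF2 had only 58 to 199 expected counts per library, and the remaining members had between 470 (DHCR7) and 31276 (CYP51A1). All 9 plasma cell markers examined were tested, and their summed level was 8644 to 19482 CPM, counts scaled to a common library size with edgeR's TMM factors, in every library, although CD38 was at 0.104 to 0.301 CPM in KMS11. In ethanol 8 of the 9 were called lower in KMS11 than in H929 and 0 higher (median log2 difference -1.75), as 36.4% and 35.6% of all genes were. After fluvastatin 2 were called higher and 4 lower in H929, as 22.7% and 19.3% of all genes were, which the sum does not show. Of the markers of other cell types, CD14 was at 0 in all libraries and CD3D and MS4A1 were at most at 0.0878 CPM. CD3E, a T cell marker like CD3D, was at 4.08 and 4.40 CPM in H929 in ethanol and at 8.61 and 9.91 CPM in fluvastatin (log2 difference 1.13, edgeR adjusted p = 0.0031) and at most at 0.820 CPM in KMS11. The summed level of these markers was 4.73 to 5.001 CPM in H929 in ethanol, 9.22 to 10.8 CPM in H929 in fluvastatin, 63.9 to 66.8 CPM in KMS11 in ethanol and 65.2 to 71.4 CPM in KMS11 in fluvastatin, and its part in the results was not tested. Among them the epithelial marker EPCAM was at 60.8 to 68.7 CPM in KMS11 and at most at 0.0439 CPM in H929.

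Fluvastatin was followed by higher RNA of all 9 members in KMS11 and by a mixed response in H929. Within KMS11, 9 of 9 members rose (median log2 difference 1.10), where 2.58% of all tested genes rose and the median of all genes was 0.0044. Within H929 SC5D was the 1 member called higher, where 22.7% of all genes were, and HSD17B7, EBP and DHCR7 fell, where 19.3% did, with a median over the 9 members of 0.14 against 0.02 for all genes. The response was more positive in KMS11 than in H929 for 8 of 9 members by the test of that difference, which 11.7% of all genes passed in this direction. A gene was called when its p from the quasi-likelihood test of edgeR, adjusted by Benjamini and Hochberg's method over all tested genes, was under 0.05. In RNA from a whole culture, less RNA per cell and fewer cells with the RNA cannot be told apart.

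The calls in KMS11 rested on both ethanol libraries of that line. Without KMS11 ethanol replicate 1, MSMO1 and CYP51A1 alone kept their calls, so that 2 of 9 members and 63 of all tested genes were called. Without KMS11 ethanol replicate 2, 6 of 9 members and 72 of all genes were called, and TM7SF2, EBP and SC5D were not. All 9 log2 differences stayed above 0 under every alternative tried, and 9 of 9 were called without either fluvastatin library of KMS11.

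**Figure D1:**
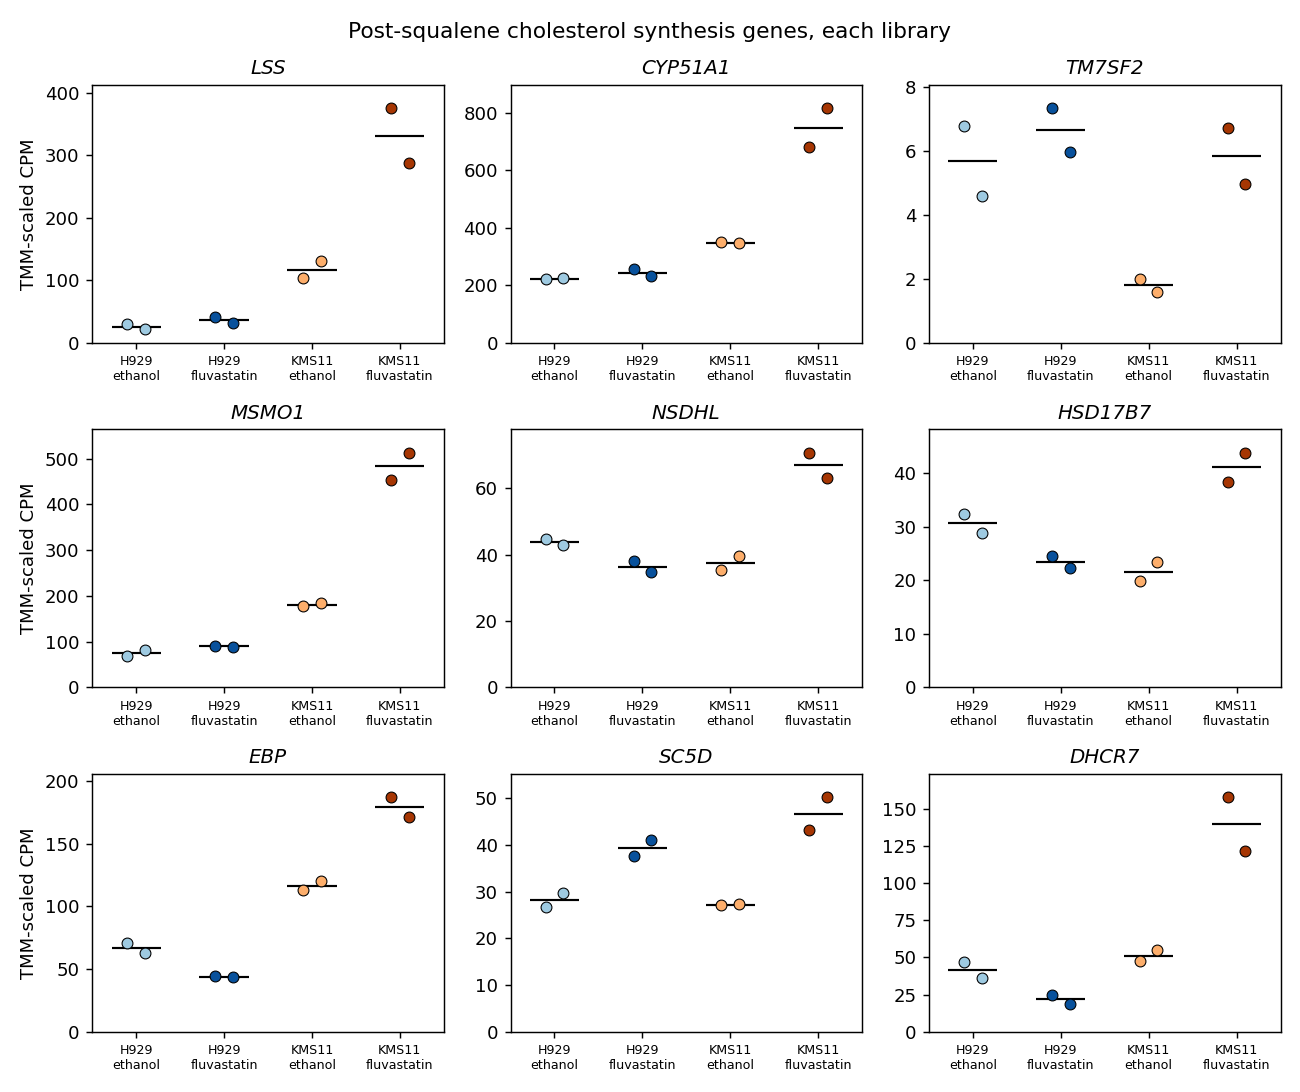
TMM-scaled CPM of the 9 genes in each library. Each point is a library, the horizontal bars are the means of the 2 replicates, and every axis starts at 0. In KMS11 the fluvastatin points lie above the ethanol points in all 9 panels, while in H929 they lie above in 4 panels, below in 4 and overlap for TM7SF2.

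LSS (ENSG00000160285.14, chromosome 21 of GRCh38, 46188141 to 46228824) closes the rings of squalene epoxide. In H929 it was at 29.6 and 21.3 CPM in ethanol and at 42.0 and 31.2 CPM in fluvastatin. In KMS11 it was at 104 and 130.2 CPM in ethanol and at 375 and 288 CPM in fluvastatin. Treated libraries lay above the controls in both lines, by a narrow margin in H929. Within KMS11 LSS rose by a log2 difference of 1.50 (standard error 0.20, edgeR adjusted p = 0.0036). Within H929 the log2 difference was 0.52 (standard error 0.21, adjusted p = 0.068), which passed the threshold without H929 ethanol replicate 1 (0.78, adjusted p = 0.030) and without H929 fluvastatin replicate 2 (0.72, adjusted p = 0.035), as it did without either KMS11 fluvastatin library (0.49 and 0.48, adjusted p = 0.035 and 0.033). It was also called by DESeq2 (0.53, adjusted p = 0.012), with median-of-ratios scaling (0.53, adjusted p = 0.048) and with no filter on low counts (0.51, adjusted p = 0.016), and in 10 of 22 alternatives in all. The responses differed by 0.98 (log2, standard error 0.28, adjusted p = 0.033). That call was lost without H929 ethanol replicate 1 (0.73, adjusted p = 0.12), H929 fluvastatin replicate 2 (0.78, adjusted p = 0.11) or KMS11 ethanol replicate 1 (0.83, adjusted p = 0.12).

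Demethylation of lanosterol begins with CYP51A1 (ENSG00000001630.15, chromosome 7, 92084987 to 92134803), the cytochrome P450 that removes the methyl group at C14. It was at 220.4 and 225 CPM in ethanol and at 257 and 232 CPM in fluvastatin in H929, and at 351 and 346 CPM in ethanol and at 682 and 816 CPM in fluvastatin in KMS11. Groups did not overlap in either line, and the step in KMS11 was far larger than the spread between its replicates. CYP51A1 rose by 1.10 within KMS11 (log2, standard error 0.10, edgeR adjusted p = 0.00048), a 2.15-fold rise, against 0.14 in H929 (standard error 0.10, adjusted p = 0.33), and the responses differed by 0.97 (adjusted p = 0.0020). The pseudogenes CYP51A1P1 and CYP51A1P2 held 18 to 108 and 34 to 234 expected counts, and adding them to CYP51A1 changed no call.

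TM7SF2 (ENSG00000149809.14, chromosome 11, 65111845 to 65116384) encodes a C14 sterol reductase of the endoplasmic reticulum. It was at 6.77 and 4.60 CPM in ethanol and at 7.33 and 5.96 CPM in fluvastatin in H929, which overlap. The KMS11 libraries held 2.01 and 1.59 CPM in ethanol and 6.72 and 4.96 CPM in fluvastatin, so that treatment was followed by a level close to that of H929. Within KMS11 it rose by 1.69 (log2, standard error 0.27, edgeR adjusted p = 0.0095), with the largest standard error of the 9. The value was 1.21 with the GC trend of each library taken out, 0.88 by limma on log2(TPM + 1) and 1.29 on log2(TPM + 0.1). Mean TPM in KMS11 was 1.19 in ethanol and 3.045 in fluvastatin, so the added constant bears on the TPM values. In H929 the log2 difference was 0.22 (standard error 0.25, adjusted p = 0.52) and turned to -0.03 without H929 ethanol replicate 2. The responses differed by 1.47 (standard error 0.37, adjusted p = 0.019), a call that was lost without H929 ethanol replicate 1 (1.16, adjusted p = 0.072), H929 fluvastatin replicate 2 (1.33, adjusted p = 0.064) or KMS11 ethanol replicate 2 (1.31, adjusted p = 0.072). LBR, the lamin B receptor, carries the same reductase activity and was at 266 to 307 CPM in H929 and at 592 to 688 CPM in KMS11. Its log2 difference was 0.12 in H929 and 0.02 in KMS11 (adjusted p = 0.37 and 0.92).

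The methyl groups at C4 are removed by MSMO1, NSDHL and HSD17B7 in turn. MSMO1 (ENSG00000052802.12, chromosome 4, 165327667 to 165343164), the oxidase, was at 68.6 and 81.5 CPM in ethanol and at 89.8 and 89.0 CPM in fluvastatin in H929. KMS11 had 177 and 185 CPM in ethanol and 454 and 513 CPM in fluvastatin. Both lines were free of overlap, and MSMO1 had the lowest adjusted p of the 9 members within KMS11, with a log2 rise of 1.42 (standard error 0.11, edgeR adjusted p = 0.00013). In H929 the log2 difference was 0.25 (standard error 0.11, adjusted p = 0.084), called without H929 ethanol replicate 2 (0.38, adjusted p = 0.047), and the responses differed by 1.16 (standard error 0.15, adjusted p = 0.00098).

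NSDHL (ENSG00000147383.10, chromosome X, 152830967 to 152869729), the decarboxylating dehydrogenase, was at 44.7 and 43.0 CPM in ethanol and at 38.0 and 34.7 CPM in fluvastatin in H929. In KMS11 it was at 35.4 and 39.5 CPM in ethanol and at 70.7 and 63.1 CPM in fluvastatin. Treated libraries were thus below the controls in H929 and above them in KMS11. The rise in KMS11 was 0.84 (log2, standard error 0.11, edgeR adjusted p = 0.0036), while the log2 difference in H929 was -0.27 (standard error 0.11, adjusted p = 0.074), which was called without KMS11 fluvastatin replicate 1 (-0.30, adjusted p = 0.036) or 2 (-0.31, adjusted p = 0.031). The responses differed by 1.11 (standard error 0.16, adjusted p = 0.0014).

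HSD17B7 (ENSG00000132196.13, chromosome 1, 162790702 to 162812823), the 3-ketosteroid reductase, was at 32.4 and 28.9 CPM in ethanol and at 24.5 and 22.3 CPM in fluvastatin in H929. The KMS11 libraries held 19.9 and 23.4 CPM in ethanol and 38.4 and 43.8 CPM in fluvastatin. The groups of each line were apart, in opposite directions. HSD17B7 rose by 0.93 within KMS11 (log2, standard error 0.13, edgeR adjusted p = 0.0055) and fell by 0.39 within H929 (standard error 0.13, adjusted p = 0.039). The fall was not called without H929 ethanol replicate 1 (-0.31, adjusted p = 0.20) or 2 (-0.47, adjusted p = 0.060), nor without H929 fluvastatin replicate 1 (-0.46, adjusted p = 0.069) or 2 (-0.33, adjusted p = 0.19). The responses differed by 1.32 (standard error 0.19, adjusted p = 0.0015). The pseudogene HSD17B7P2 held 14 to 176 expected counts, and adding them changed no call.

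Of the last 3 members, EBP (ENSG00000147155.10, chromosome X, 48521799 to 48528716) is the isomerase that shifts the double bond of the B ring. It was at 70.9 and 63.2 CPM in ethanol and at 44.4 and 43.6 CPM in fluvastatin in H929. KMS11 had 113 and 120.5 CPM in ethanol and 187 and 172 CPM in fluvastatin. Both contrasts were free of overlap and ran in opposite directions. EBP rose by 0.62 within KMS11 (log2, standard error 0.10, edgeR adjusted p = 0.0081) and fell by 0.61 within H929 (standard error 0.10, adjusted p = 0.00090), with a difference between the lines of 1.23 (standard error 0.14, adjusted p = 0.00049). The rise was not called by limma on log2(TPM + 1), which gave 0.42 (adjusted p = 0.076). EBPL, a gene related to EBP in sequence, fell by 0.48 in H929 (adjusted p = 0.030) and had -0.39 in KMS11 (adjusted p = 0.17).

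SC5D (ENSG00000109929.9, chromosome 11, 121292681 to 121313410), the C5 desaturase, was at 26.8 and 29.6 CPM in ethanol and at 37.5 and 41.0 CPM in fluvastatin in H929. In KMS11 it was at 27.2 and 27.3 CPM in ethanol and at 43.3 and 50.2 CPM in fluvastatin. SC5D was the 1 member called higher in both lines in the fit of the 4 group means, by 0.48 in H929 (log2, standard error 0.12, edgeR adjusted p = 0.0095) and by 0.78 in KMS11 (standard error 0.12, adjusted p = 0.0075). The rise in H929 was not called without H929 ethanol replicate 1 (0.40, adjusted p = 0.075) or H929 fluvastatin replicate 2 (0.41, adjusted p = 0.071). The responses differed by 0.30 (standard error 0.17, adjusted p = 0.22), and it does not follow that the lines responded alike.

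DHCR7 (ENSG00000172893.15, chromosome 11, 71428193 to 71452868) encodes the reductase of 7-dehydrocholesterol. It was at 46.8 and 36.1 CPM in ethanol and at 25.0 and 18.9 CPM in fluvastatin in H929. The KMS11 libraries held 47.5 and 54.9 CPM in ethanol and 158 and 121 CPM in fluvastatin. Treated levels moved apart from the controls in both lines, in opposite directions. DHCR7 rose by 1.45 within KMS11 (log2, standard error 0.18, edgeR adjusted p = 0.0024) and fell by 0.92 within H929 (standard error 0.18, adjusted p = 0.0030). The difference of 2.36 (standard error 0.25, adjusted p = 0.00043) was the largest of the 9 members and stayed called in each of the 22 alternatives.

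**Figure D2:**
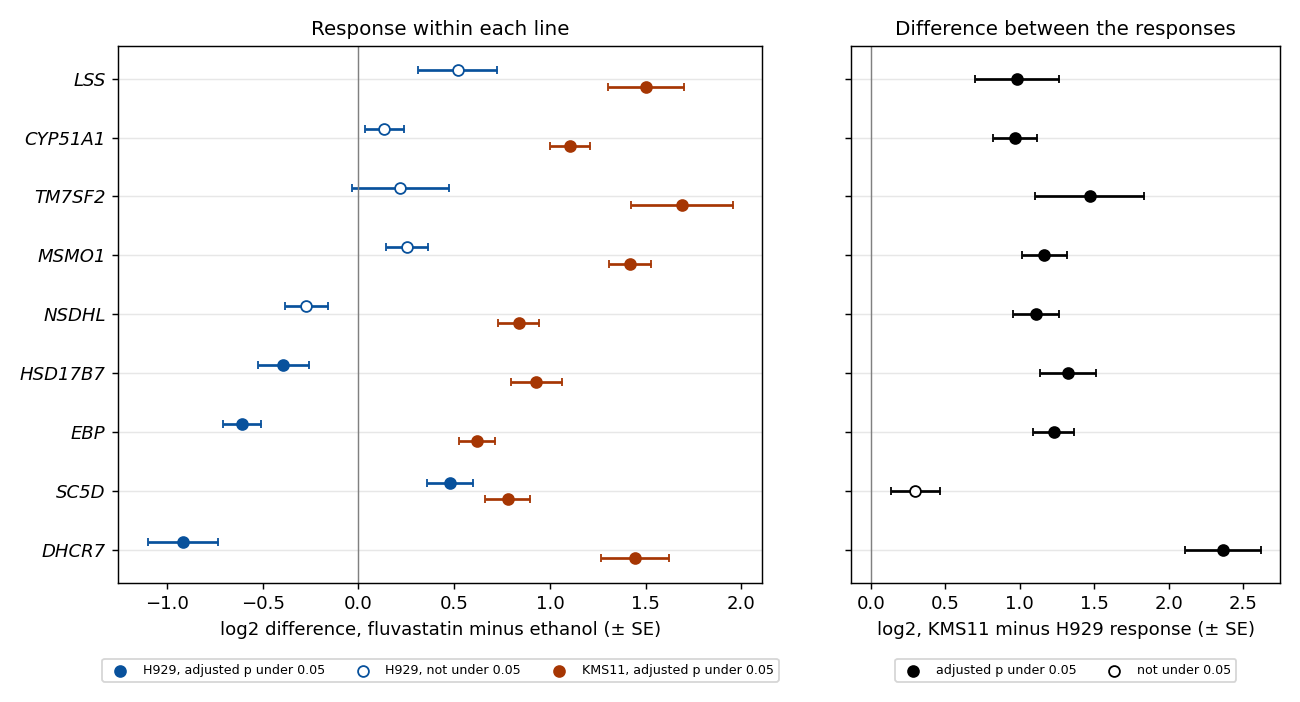
Log2 difference of fluvastatin minus ethanol within each line (left) and the KMS11 minus the H929 response (right), with standard errors of the edgeR fit of 8 libraries. Filled points have an adjusted p under 0.05. All 9 KMS11 points lie above 0, from 0.62 for EBP to 1.69 for TM7SF2, while the H929 points run from -0.92 for DHCR7 to 0.52 for LSS.

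In counts of members that did not overlap between treatment groups, 4 of 9 had both fluvastatin libraries above both ethanol libraries in H929, as 37.5% of all tested genes did, and 4 of 9 had them below, as 33.5% did. In KMS11 both were above for 9 of 9, as for 26.9% of all tested genes. Among all 13129 log2 differences, the members ranked between 212 (TM7SF2) and 1315 (EBP) from the highest in KMS11. In H929 they ranked from 2923 (LSS) to 12255 (DHCR7).

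In some groups the members divided by GC content in which replicate was higher. In the KMS11 fluvastatin group, replicate 1 was higher for the 5 members with a GC content of 51.4% to 63.1% (LSS, TM7SF2, NSDHL, EBP and DHCR7) and replicate 2 for the 4 with 37.9% to 44.5% (CYP51A1, MSMO1, HSD17B7 and SC5D). In the KMS11 ethanol group they did not divide, with replicate 1 higher for CYP51A1 (40.7%) and TM7SF2 (63.1%) and replicate 2 for the other 7 (37.9% to 58.6%). Over 5560 genes the log2 level rose by 0.24 per 10% of GC in KMS11 fluvastatin replicate 1 relative to the mean of the libraries of that line. The slope was -0.05 in KMS11 fluvastatin replicate 2, and -0.12 and -0.07 in KMS11 ethanol replicates 1 and 2. Both fluvastatin slopes of KMS11 were thus above both ethanol slopes, so the trend ran in part with treatment. In H929 the slopes were 0.17 and 9.27e-06 in ethanol replicates 1 and 2, and 0.0051 and -0.17 in fluvastatin replicates 1 and 2. There the highest slope was in ethanol and the lowest in fluvastatin, with overlap. With the GC trend of each library taken out, all 9 members were still called higher in KMS11, and HSD17B7, EBP and DHCR7 were still lower in H929, with log2 differences of -0.45, -0.44 and -0.72. LSS (0.72, edgeR adjusted p = 0.00035) and TM7SF2 (0.51, adjusted p = 0.023) were then also called higher in H929. Between the lines, TM7SF2 was no longer called (0.69, adjusted p = 0.052), SC5D was (0.50, adjusted p = 0.0035), and the difference for LSS moved to 0.50 (adjusted p = 0.031). The share of all genes called with the GC trend taken out is not given.

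The promoters of the members are given for the 3 genes with the largest difference between the lines, DHCR7, TM7SF2 and HSD17B7, and for SC5D, which had the smallest. Each is the 250 bases before the first transcript start that RefSeq lists (GRCh38.p14), 5′ to 3′ on the gene's strand. Capitals mark the CCAAT box (CCAAT) and the GC box (GGGCGG) on either strand, so that ATTGG and CCGCCC are the same boxes read from the other strand.
DHCR7, chr11:71448394-71448643, minus strand: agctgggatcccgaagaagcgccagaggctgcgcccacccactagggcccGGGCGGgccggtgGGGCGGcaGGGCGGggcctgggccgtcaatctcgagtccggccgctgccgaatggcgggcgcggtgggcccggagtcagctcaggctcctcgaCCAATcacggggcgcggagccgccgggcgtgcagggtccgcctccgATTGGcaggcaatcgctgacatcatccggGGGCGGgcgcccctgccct
TM7SF2, chr11:65111622-65111871, plus strand: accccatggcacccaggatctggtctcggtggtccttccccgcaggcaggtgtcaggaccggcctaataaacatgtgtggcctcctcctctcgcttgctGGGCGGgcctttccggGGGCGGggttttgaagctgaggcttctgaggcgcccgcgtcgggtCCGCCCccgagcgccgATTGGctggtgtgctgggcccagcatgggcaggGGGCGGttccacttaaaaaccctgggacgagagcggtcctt
HSD17B7, chr1:162790452-162790701, plus strand: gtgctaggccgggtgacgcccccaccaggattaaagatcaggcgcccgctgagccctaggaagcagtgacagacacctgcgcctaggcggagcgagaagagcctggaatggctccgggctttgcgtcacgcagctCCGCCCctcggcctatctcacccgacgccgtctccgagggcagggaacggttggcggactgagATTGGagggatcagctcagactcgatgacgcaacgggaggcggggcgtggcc
SC5D, chr11:121292521-121292770, plus strand: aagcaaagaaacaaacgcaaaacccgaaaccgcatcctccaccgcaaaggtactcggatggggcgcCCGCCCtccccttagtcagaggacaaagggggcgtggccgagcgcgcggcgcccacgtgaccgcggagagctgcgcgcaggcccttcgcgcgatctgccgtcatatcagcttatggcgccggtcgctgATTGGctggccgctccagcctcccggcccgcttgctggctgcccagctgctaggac
SREBP acts with the CCAAT-binding factor NF-Y and with Sp1, which binds GC boxes. Of the 9 members 8 held CCAAT in this window, all but CYP51A1, against 32.0% of 35116 windows of the same length. The members were counted by their first window alone, while the 35116 windows take in further starts of a gene, so the shares are not like for like. A GC box was in 8 of 9, all but NSDHL, against 42.6% of windows. The strict form of the sterol regulatory element, TCACNCCAC, was in none of the 9 and in 0.883% of all windows. For SC5D and DHCR7 RefSeq lists a second start, and the second window of DHCR7 held no match to any of the 3 motifs. Both DHCR7 windows lie inside the GENCODE span of the gene (71428193 to 71452868), not before its 5′ end. DHCR7 and SC5D, with the largest and the smallest difference between the lines, both held CCAAT and GC boxes. These matches are letters in a window, and binding was not measured.

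In ethanol the lines held different amounts of these RNAs. Relative to H929, KMS11 had more LSS (log2 difference 2.20), MSMO1 (1.27), EBP (0.80) and CYP51A1 (0.65) and less TM7SF2 (-1.66) and HSD17B7 (-0.51), with edgeR adjusted p between 3.5e-06 and 0.0062. That is 4 of 9 higher, against 35.6% of all genes, and 2 of 9 lower, against 36.4%. NSDHL (-0.23, adjusted p = 0.086), SC5D (-0.05, adjusted p = 0.72) and DHCR7 (0.30, adjusted p = 0.15) were not called. HSD17B7 was not called without H929 ethanol replicate 1 (-0.42, adjusted p = 0.052) or KMS11 ethanol replicate 1 (-0.38, adjusted p = 0.081). On log2(TPM + 1) the median of all genes was shifted by 0.46 toward KMS11. NSDHL (0.26), HSD17B7 (0.09) and SC5D (0.46) lay above 0 there, NSDHL and HSD17B7 by less than that shift and SC5D by about the shift itself. DHCR7 was called there, at 0.93 (limma adjusted p = 0.00027), as was SC5D, above 0 (adjusted p = 0.0076). With the GC trend taken out all 9 members were called, but the share of all genes called in that fit is not given. Since 35.6% and 36.4% of all genes were called higher and lower in the main fit, this count does not set the members apart. DHCR7 was then at 0.79 (edgeR adjusted p = 8.7e-06), SC5D, in the opposite direction, at -0.37 (adjusted p = 0.00083) and NSDHL at -0.25 (adjusted p = 0.014). TM7SF2 moved to -0.59 (adjusted p = 0.013) and CYP51A1 to 0.34 (adjusted p = 0.0031).

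Levels of different members can be compared only per transcript length, as TPM. In H929 in ethanol EBP led with 45.2 ± 3.85 TPM (SD, n = 2) and CYP51A1 followed with 41.1 ± 0.0919. MSMO1 (17.6), NSDHL (13.4), HSD17B7 (11.4), DHCR7 (9.70), SC5D (6.76), LSS (3.22) and TM7SF2 (2.64 ± 0.453) came next. The ranges of HSD17B7 and DHCR7 overlapped, as did those of LSS and TM7SF2, and the other neighbours were apart. In KMS11 in ethanol the order was EBP (114 ± 1.87 TPM), CYP51A1 (88.1), MSMO1 (60.3), LSS (21.8), DHCR7 (19.1), NSDHL (16.2), HSD17B7 (12.2), SC5D (9.68) and TM7SF2 (1.19 ± 0.325), with no overlap between neighbours.

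After fluvastatin CYP51A1 stood first in H929 (43.7 ± 2.30 TPM, n = 2), above EBP (28.7 ± 0.247), and SC5D (9.71 ± 0.0990) moved above HSD17B7 (8.86 ± 0.361) and DHCR7 (5.17 ± 1.12). Apart from the overlap of DHCR7 with LSS (4.37 ± 0.693), the neighbours in that order were apart. In KMS11 CYP51A1 (172 ± 32.7), EBP (152 ± 3.22) and MSMO1 (151 ± 24.3) could not be ordered beyond their spread, and the rest kept the order they had in ethanol. The summed TPM of the 9 members was 151 in H929 in ethanol and 136 in fluvastatin, and 342 and 638 in KMS11 (means of 2 libraries). Between the lines these values carry the shift of the median gene toward KMS11 that TPM showed in ethanol. EBP took 33.2% of that sum in KMS11 in ethanol and 23.9% in fluvastatin, and MSMO1 17.6% and 23.6%. In H929 EBP went from 29.9% to 21.2%, and DHCR7 from 6.39% to 3.80%.

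**Figure D3:**
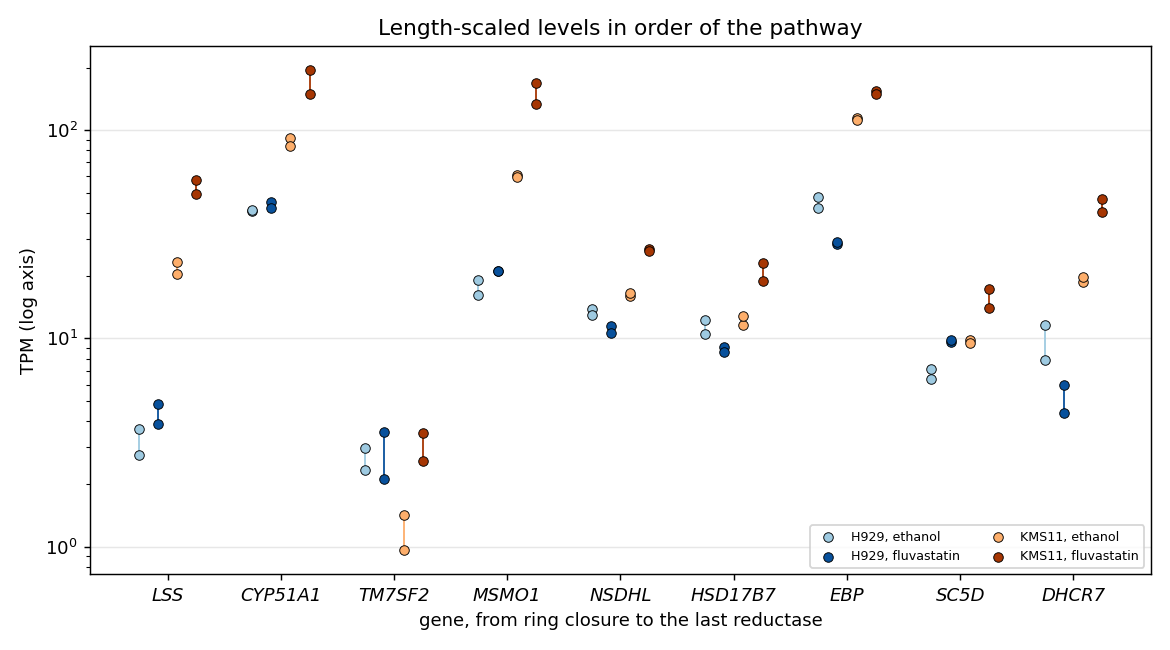
TPM of the 9 genes on a log axis, in the order in which the enzymes act. Each point is a library and the thin lines join the 2 replicates of a group. EBP, CYP51A1 and MSMO1 lie highest in all groups, and TM7SF2 has the lowest mean in all groups, at 0.960 to 1.42 TPM in KMS11 in ethanol.

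With the lines fitted together and the line as a term, LSS (log2 difference 1.02, edgeR adjusted p = 0.030), MSMO1 (0.84, adjusted p = 0.044) and SC5D (0.63, adjusted p = 0.013) rose, which is 3 of 9 members against 6.50% of all genes. The other 6 had log2 differences from 0.01 (EBP) to 0.94 (TM7SF2), of which TM7SF2 had an adjusted p of 0.089 and CYP51A1 (0.62) of 0.063. EBP, which moved by like amounts in opposite directions in the lines, had 0.01 (adjusted p = 0.98). These values average unlike responses for 8 of the 9 genes. Leaving out single libraries left 0 to 2 of the 3 calls, with none left without KMS11 ethanol replicate 2, where LSS had 0.94 (adjusted p = 0.072), MSMO1 0.68 (adjusted p = 0.11) and SC5D 0.57 (adjusted p = 0.051). MSMO1 was lost without any 1 of the 8 libraries (0.66 to 0.99). LSS was also lost without H929 ethanol replicate 2 (1.02, adjusted p = 0.10), H929 fluvastatin replicate 1 (1.06, adjusted p = 0.098) or KMS11 ethanol replicate 1 (0.82, adjusted p = 0.057), and DHCR7 (0.29) turned to -0.13 and -0.07 without KMS11 ethanol replicate 1 and 2.

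The enzymes upstream were also called mainly in KMS11. Of the 10 genes from acetyl-CoA to squalene, with GGPS1 of the geranylgeranyl branch among them, 8 rose within KMS11 (median log2 difference 1.29), where 2.58% of all tested genes rose. Within H929 1 rose and 3 fell (median -0.28), where 22.7% and 19.3% of all genes did. By the test of the difference 8 were more positive in KMS11, as 11.7% of all genes were, and GGPS1 was more positive in H929 (-0.61, edgeR adjusted p = 0.033), a direction that 11.5% of all genes showed. The largest differences were those of MVD, the mevalonate diphosphate decarboxylase (2.67, adjusted p = 0.0027), ACAT2, a cytosolic thiolase (2.00, adjusted p = 9.5e-05), and MVK, the mevalonate kinase (1.93, adjusted p = 0.0031). Their GC content was 63.4%, 46.7% and 59.6%, and values with the GC trend taken out are not given for them. In H929 MVD was at 4.55 to 4.68 TPM in ethanol and at 3.28 to 6.06 in fluvastatin, which overlap. In KMS11 its TPM went from 7.66 to 9.05 in ethanol to 24.2 to 31.8 in fluvastatin. Mean TPM of ACAT2 and MVK fell in H929 and rose in KMS11, with overlap for MVK in H929. SQLE, directly before LSS, rose by 1.21 in KMS11 (adjusted p = 0.00048), had -0.29 in H929 (adjusted p = 0.075) and differed by 1.49 (adjusted p = 0.00046). FAXDC2 was at most at 0.132 CPM and was not tested.

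Several members need redox partners, and those of C4 demethylation also sit on a scaffold. Of 7 such genes 1 rose in KMS11 (2.58% of all genes), 3 fell in H929 (19.3% of all genes) and 4 had a more positive response in KMS11 (11.7% of all genes). POR, the reductase that passes electrons to CYP51A1 and SQLE, fell by 0.79 in H929 (edgeR adjusted p = 0.011), had 0.48 in KMS11 (adjusted p = 0.19) and differed by 1.27 (adjusted p = 0.012). The mean TPM of POR (GC content 59.4%) went from 9.83 to 6.25 in H929 and was 20.4 in ethanol and 20.1 in fluvastatin in KMS11. ERG28, whose yeast counterpart is the scaffold of the C4 demethylation enzymes, rose by 0.77 in KMS11 (adjusted p = 0.0065) and differed by 0.82 (adjusted p = 0.0076). PGRMC1, a heme protein that binds P450 enzymes, fell by 0.47 in H929 (adjusted p = 0.0087) and differed by 0.57 (adjusted p = 0.031).

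Of 10 tested genes for sterol sensing and uptake 3 rose in KMS11, against 2.58% of all genes. In H929 2 rose and 1 fell, against 22.7% and 19.3%, and 4 responses were more positive and 1 was less positive in KMS11, against 11.7% and 11.5%. The largest differences were those of INSIG1 (1.55, edgeR adjusted p = 0.0038), STARD4, a sterol carrier (0.998, adjusted p = 0.0036), and MBTPS2, a protease that releases SREBP from the membrane (-0.66, adjusted p = 0.049). SREBF2, which encodes SREBP2, had 0.90 in KMS11 (adjusted p = 0.050) and 0.17 in H929 (adjusted p = 0.56). SREBF2 and GGPS1 are named after their values were seen. Of 8 tested genes for sterol efflux and esters more fell than rose, with 3 lower and 0 higher in KMS11, where 0.533% of all genes fell, and 3 lower and 1 higher in H929, where 19.3% and 22.7% of all genes were. ABCA1 and ABCG1, which export cholesterol, fell by 2.46 and 2.31 in H929 (adjusted p = 2.4e-06 and 1.4e-05) and by 1.04 and 0.64 in KMS11 (adjusted p = 0.0019 and 0.037). SOAT2, which esterifies cholesterol, rose by 1.13 in H929 (adjusted p = 0.0085) and had -0.17 in KMS11 (adjusted p = 0.74).

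**Figure D4:**
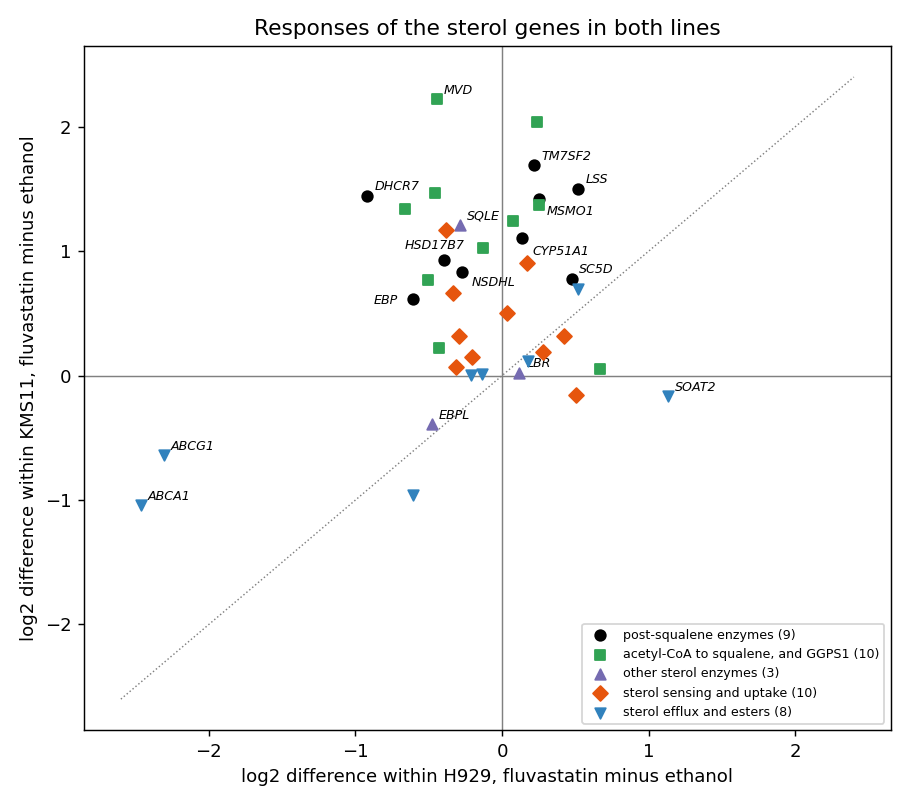
Log2 difference of fluvastatin minus ethanol within H929 (horizontal axis) and within KMS11 (vertical axis) for the 9 members and 4 further lists of sterol genes, with the number of genes tested in the legend. The dotted line marks equal responses. The 9 members and most upstream enzymes lie above the line, with DHCR7 farthest to the left of them, while ABCA1 and ABCG1 lie in the lower left.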

How the data were processed

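Per the labels and the study's methods, the authors prepared stranded libraries from RNA depleted of ribosomal RNA, sequenced paired ends, aligned them with STAR 2.5.2b to hg38 and quantified genes with RSEM 1.3.0, per the submitters' processing notes. The deposited expected counts are RSEM's estimates of fragments per gene and are not normalized. The deposited TPM are scaled by effective length over all genes, and the effective length itself entered no test. The deposited FPKM were not used. Fragments that match several genes are divided by RSEM, which bears on members with pseudogenes.

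After rounding, the counts of protein-coding genes of GENCODE release 44 were analysed with edgeR 4.0.16 (R 4.3.3), with TMM scaling, filterByExpr (minimum count 10, minimum total 15) and the quasi-likelihood test. The 4 group means were fitted on 8 libraries, with a second fit of line and treatment for the response across both lines. A standard error is the log2 difference divided by the square root of F. With 2 replicates a group, genes and groups share the estimate of the spread. The replicates are biological by the study's methods, and p values measure the spread between these cultures. Alternatives used DESeq2 1.42.0, limma 3.58.1 on log2(TPM + 1) and on log2(TPM + 0.1), other scalings, filters and adjustments, a GC trend per library as an offset, a replicate block, pseudogene counts and each library left out. The fits were tested on simulated data in which 200 genes were changed by a log2 size of 1. Within H929 86% of these were recovered and 4.97% of calls were false. Within KMS11 90% were recovered and 5.76% of calls were false. For the difference between the lines 66% were recovered and 8.97% of calls were false, the highest of these shares. Calls of that difference are thus less secure than calls within a line.

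The members and all gene lists were chosen with earlier results of these data known. All members were named. From the other lists every tested further sterol enzyme was named, and up to 3 genes of each further list with the largest called difference between the lines. Planned comparisons of protein sequences were not run, and results on some withheld items are not reported here. Promoters came from RefSeq, where all 9 members had an entry.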

Additional observations from a re-analysis of the deposited data

Results flagged for a closer look

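H929 and KMS11 responded differently to fluvastatin in 8 of the 9 members, by the edgeR test of the difference itself. All 8 were more positive in KMS11, a direction that 11.7% of all genes showed. The calls of LSS and TM7SF2 were each lost when certain single libraries were left out. The KMS11 minus H929 log2 values were 2.36 for DHCR7, 1.47 for TM7SF2, 1.32 for HSD17B7, 1.23 for EBP, 1.16 for MSMO1, 1.11 for NSDHL, 0.98 for LSS and 0.97 for CYP51A1. HSD17B7, EBP and DHCR7 were called lower in H929 and higher in KMS11.

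Among the other sterol enzymes the same test passed for SQLE (1.49), and upstream of squalene the largest differences were those of MVD (2.67), ACAT2 (2.00) and MVK (1.93). For redox partners and the scaffold they were those of POR (1.27), ERG28 (0.82) and PGRMC1 (0.57). For sterol sensing and uptake they were those of INSIG1 (1.55), STARD4 (0.998) and MBTPS2 (-0.66). For efflux and esters they were those of ABCG1 (1.67) and ABCA1 (1.42), which fell in both lines and less so in KMS11, and of SOAT2 (-1.30).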

How the results depend on the processing

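With 2 replicates a group, single libraries decided several calls. Leaving out 1 library gave 3 to 6 members called within H929, 2 to 9 within KMS11, 6 to 8 for the difference between the lines, 0 to 2 across both lines and 5 to 6 between the lines in ethanol. The cause of these shifts was not tested. Bonferroni adjustment of the edgeR p values left 0 members in H929 (7 had an unadjusted p under 0.05, and DESeq2 called 5), 2 in KMS11, 1 for the difference, 0 across both lines and 2 in ethanol. Across both lines DESeq2 called 5 members, an adjusted p under 0.01 left 0, and 5 had an unadjusted edgeR p under 0.05. With the GC trend taken out 6 members were called in H929 and 9 in ethanol, and with all annotated genes 2 across both lines, each a move of 1.5 times. The remaining alternatives moved these counts by less, apart from the replicate block. For most alternatives the share of all genes called is not given, so the counts show only how far the calls depended on processing.

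Same-numbered libraries deviated together in H929 (correlation 0.77 over 5560 genes) and not in KMS11 (-0.08), so the numbers were not taken as pairs. With a replicate block edgeR called 6 members within H929, with LSS (0.53, adjusted p = 0.014) and MSMO1 (0.26, adjusted p = 0.040) added as higher, 9 within KMS11, 8 for the difference and 0 across both lines (5 with an unadjusted p under 0.05), or 1 across both lines when the GC trend was also taken out. The ethanol comparison could not be fitted with the block. The share of all genes called with the block is not given, so these counts are not set against a background. In the main fit 22.7% of all genes were called higher and 19.3% lower within H929. There 2.58% were called higher within KMS11 and 11.7% had a more positive response in KMS11.

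HSD17B7 in ethanol, called at -0.51, turned in direction on TPM. The other values that turned had not been called, although SC5D in ethanol was called on TPM after it turned. Across both lines EBP moved from 0.0135 to -0.0039 with DESeq2, -0.0205 with all annotated genes and -0.11 on log2(TPM + 1) and on log2(TPM + 0.1). Without 1 library it ranged from -0.19 to 0.17, below 0 without any single KMS11 library, and DHCR7 from -0.13 to 0.69, below 0 without either KMS11 ethanol library. In ethanol NSDHL, HSD17B7 and SC5D moved to 0.26, 0.093 and 0.46 on log2(TPM + 1) and to 0.28, 0.10 and 0.51 on log2(TPM + 0.1), where the median of all genes was 0.46 and 0.52, and without 1 library SC5D ranged from -0.12 to 0.0304, above 0 without H929 ethanol replicate 2. Without 1 library TM7SF2 in H929 ranged from -0.0279, without that same library, to 0.53, without H929 ethanol replicate 1. All-gene counts called also moved, from 409 to 63 in KMS11 without KMS11 ethanol replicate 1.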

Other observations

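The 5 genes whose levels followed the mean of the 9 members most closely were SPAG7 (Pearson r = 0.988), PLEKHG4B (0.985), FDFT1 (0.984), IDH1 (0.981) and GPAT4 (0.980), over 8 libraries and 10577 candidate genes, after each gene was centred in each line and divided by its spread. FDFT1, the squalene synthase, rose by 1.24 in KMS11 (log2, edgeR adjusted p = 0.00044) and had 0.07 in H929 (adjusted p = 0.65). IDH1, a cytosolic isocitrate dehydrogenase that makes NADPH, rose by 0.50 in KMS11 (adjusted p = 0.015) and had -0.02 in H929. PLEKHG4B rose by 0.84 in KMS11 (adjusted p = 0.017). SPAG7 and GPAT4 had 0.55 (adjusted p = 0.050) and 0.15 (adjusted p = 0.30) in KMS11. The points share the same libraries and the centring by line, and the value is a description. By the same measure each member was set against the mean of the other 8, which gave 0.954 for NSDHL, 0.944 for CYP51A1 and 0.921 for MSMO1 at the top, and 0.707 for EBP and 0.701 for SC5D at the bottom.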
